A study of Mus musculus with 16 samples.

Results

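The epidermal growth factor (EGF) receptor ligands and the ErbB receptors were followed through kidney injury in mice with and without Degs1, the gene of dihydroceramide desaturase, an enzyme of ceramide synthesis. The family was taken by gene name as 10 genes of the 56980 in the table: the ligands Egf, Hbegf, Areg, Tgfa, Btc and Ereg and the receptors Egfr, Erbb2, Erbb3 and Erbb4. RNA came from kidney cortex of male C57Bl/6J mice, as 16 samples in 4 groups of 4. Degs1iGKO mice (iGKO) carried Degs1fl/fl together with Rosa26-CreERT2, a tamoxifen-inducible Cre that is expressed throughout the body, and Degs1fl/fl littermates (fl/fl) were the controls. Both genotypes received 3 mg tamoxifen on each of 5 days at 9 weeks of age. At 12 weeks they underwent either bilateral ischaemia-reperfusion injury (IRI), with both renal pedicles clamped for 28 min and released for up to 24 h, or a sham operation without the clamp. Each group is called by genotype and operation, such as iGKO sham, and fl/fl IRI 1 is the library of replicate 1 of that group.

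All these ligands are made as membrane-anchored precursors, and metalloproteases such as ADAM10 and ADAM17 release them from the cell surface. A ligand brings a pair of receptors together, and the paired receptors activate the RAS-ERK and PI3K-AKT pathways, which drive survival and proliferation. In the kidney, Egf is made by the thick ascending limb and the distal convoluted tubule, whereas Hbegf, Areg, Tgfa and Ereg are known as ligands that damaged epithelium and leukocytes induce. EGF receptor activity is required for timely tubular repair after acute injury, and its prolonged activity is linked to fibrosis.

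The genes of Epgn, Ereg, Areg and Btc follow each other as neighbouring protein-coding genes in RefSeq. RefSeq promoter windows (build GRCm38.p6) were at hand for 7 of the 10 members, and the set held none for Hbegf, Ereg and Erbb3. The 250 bases before the start of Egf, the ligand with the highest level, and of Areg, a ligand known for induction after injury, are shown because they differ in the elements searched for. They are written 5′ to 3′ on the strand of the gene, and capitals mark matched motifs. The windows are chr3:129755323-129755572 on the minus strand for Egf and chr5:91139349-91139598 on the plus strand for Areg.
Egf: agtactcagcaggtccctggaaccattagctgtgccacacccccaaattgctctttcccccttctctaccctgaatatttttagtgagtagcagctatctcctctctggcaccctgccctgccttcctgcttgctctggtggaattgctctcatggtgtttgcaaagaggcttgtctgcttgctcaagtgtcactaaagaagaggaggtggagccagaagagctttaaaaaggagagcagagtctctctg
Areg: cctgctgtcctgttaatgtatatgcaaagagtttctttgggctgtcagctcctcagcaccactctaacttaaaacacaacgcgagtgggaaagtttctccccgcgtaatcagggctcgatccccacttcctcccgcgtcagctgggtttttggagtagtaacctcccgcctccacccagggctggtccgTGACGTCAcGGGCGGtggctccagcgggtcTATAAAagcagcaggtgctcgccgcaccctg
In the Areg window a cyclic AMP response element (TGACGTCA) starts at base -61 from the transcription start, a GC box (GGGCGG) at -52 and a TATA box (TATAAA) at -31. The Egf window held no match to these 3, to an AP-1 site (TGANTCA) or to a CCAAT box (CCAAT). Both strands were searched, and no match overlapped another in the windows shown. Among 32851 promoter windows of this length, 1.55% held the cyclic AMP element, 12.4% the TATA box, 32.7% the GC box, 33.8% the CCAAT box and 6.75% the AP-1 site. Of the other members with a window, Tgfa held 2 GC boxes, Egfr 1 GC box and Erbb2 1 CCAAT box, and Btc and Erbb4 held none of the 5 motifs. A match describes letters only and is no evidence of binding.

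Libraries held 12704273 to 18816343 counts. Levels are CPM, counts scaled by TMM to 1000000 per library. A level or share with ± is the mean and SD of 4 libraries. A log2 fold change or log2 difference with ± is given with its SE. Genes were tested with edgeR's quasi-likelihood test, and a gene is called when its p, adjusted by the Benjamini-Hochberg method over 17972 genes, is under 0.05. The targeted gene Degs1 was at 57.0 ± 14.3 CPM in iGKO sham against 100.3 ± 12.3 in fl/fl sham, and at 54.5 ± 6.81 in iGKO IRI against 113 ± 18.2 in fl/fl IRI, without overlap in either pair (exact permutation test, two-sided, p = 0.0286 in each, the smallest that 4 against 4 allows). By edgeR, Degs1 was not called between the sham groups (log2 fold change -0.82 ± 0.18, adjusted p = 1.00) and was lower in iGKO after IRI (-1.05 ± 0.18, adjusted p = 0.0325). The latter call was lost in 6 of the 16 fits that left out a library (adjusted p up to 0.133) and with only the 2 groups in the fit (0.317). Several libraries stood apart. Library fl/fl IRI 1 had Havcr1, the gene of kidney injury molecule KIM-1, at 100.6 CPM, and the 3 others of that group had 710 to 1666. Library iGKO sham 4 had 0.443% of its counts on mitochondrially encoded genes, against 2.05% to 6.48% in the other 15. In bulk cortex, fewer cells of a type and less RNA per cell cannot be told apart. Markers of other tissues varied between libraries: the summed fibroblast and mural markers were at 6542 CPM in iGKO IRI 2 and at 556 to 1924 CPM in the other 15, and the summed urothelium, fat, adrenal and muscle markers at 279 CPM in iGKO IRI 3 and at 0.778 to 132 CPM in the other 15, with the adrenal gene Cyp11b2 at 0 in all. The proximal tubule markers, which characterise cortex, summed to 16851 to 20196 CPM in the sham libraries.

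Of the 10 members, 8 had enough counts to be tested, and Areg and Ereg did not. After IRI in fl/fl mice, Egf fell and Hbegf rose, 1 call in each direction among 8, where 15.5% of all tested genes were called (8.46% higher and 7.01% lower). In iGKO mice none of the 8 was called by edgeR after IRI, none had an unadjusted p under 0.05 and none was called by DESeq2, and there 0% of all genes was called by edgeR. After IRI, Hbegf was lower in iGKO than in fl/fl, the only call among the 8 in that comparison, where 0.851% of all genes were called (0.178% higher and 0.673% lower). No member was called between the sham groups or for the interaction of genotype and operation, with 0% of all genes called in each. At an unadjusted p under 0.05 the sham comparison gave 0 members and 210 of all genes, and the interaction 2 and 2033. IRI in iGKO gave 0 and 1145, IRI in fl/fl 4 and 5526, and iGKO against fl/fl after IRI 5 and 3440. DESeq2 called no member between the sham groups or for the interaction. Groups without overlap were also counted. In fl/fl, IRI and sham were apart for 2 members, Hbegf above and Egf below, as for 19.5% of all genes (9.65% above and 9.82% below). In iGKO, Egf alone lay below its sham group, as for 2.76% of all genes, with 2.24% above and 5% in either direction. No member separated the sham groups, as 1.93% of all genes did (1.05% above and 0.874% below). After IRI, Btc lay above and Hbegf below in iGKO, as 2.48% and 3.04% of all genes did, 5.52% in all.

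**Figure D1:**
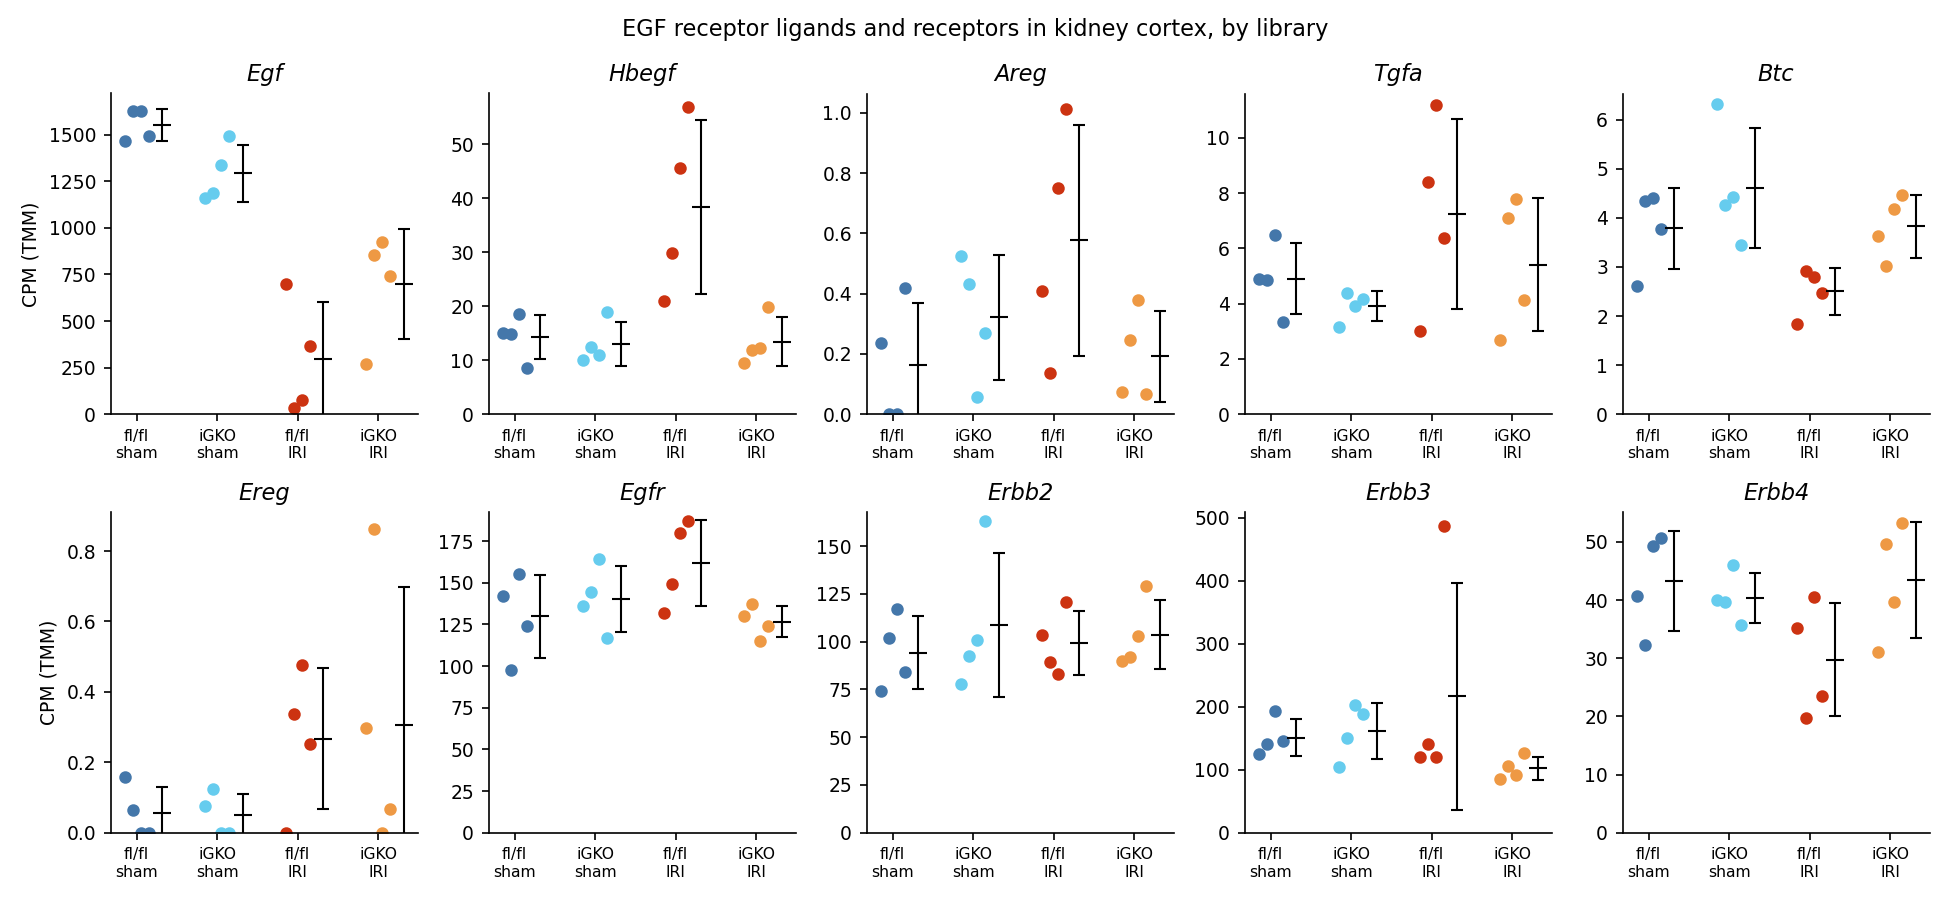
CPM of each member in every library (points), with the group mean and SD beside them (bars, shown down to 0), with the 4 groups in different colours. Egf is low and Hbegf high in fl/fl IRI, Areg and Ereg stay near 1 CPM or below, and Erbb3 has a library at 487 CPM in fl/fl IRI.

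Egf, the ligand of the distal nephron that is also shed into urine, was at 1465, 1627, 1624 and 1493 CPM in fl/fl sham 1 to 4. In iGKO sham it was at 1160, 1185, 1336 and 1490 CPM. After IRI fl/fl mice were at 699, 35.8, 77.5 and 367 CPM, and iGKO mice at 272, 855, 925 and 740 CPM. Every IRI library lay below every sham library of its genotype, and fl/fl IRI spread over the widest range, with fl/fl IRI 2 and 3 lowest and fl/fl IRI 1 highest. Group means went from 1552 ± 85.5 CPM in sham to 294.9 ± 307 after IRI in fl/fl, and from 1293 ± 153 to 698 ± 294 in iGKO.

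The fall of Egf in fl/fl was 5.26-fold (log2 fold change -2.40 ± 0.63 SE, adjusted p = 0.0190). Without fl/fl IRI 3 the adjusted p was 0.0522, and with only the 2 groups in the fit it was 0.0707. In iGKO the log2 fold change was -0.89 ± 0.61 (adjusted p = 0.930), with a 95% confidence interval of -2.17 to 0.39. The difference between the responses was 1.51 ± 0.85 on the log2 scale (adjusted p = 0.517), so Egf was not shown to respond differently in the genotypes. After IRI, Egf was 1.24 ± 0.61 higher in iGKO on the log2 scale (adjusted p = 0.277), a difference that passed when fl/fl IRI 1 was left out (2.12, adjusted p = 0.0243). That fit called 2495 of all genes in this comparison, against 153 with all libraries. Between the sham groups the log2 difference was -0.26 ± 0.60 (adjusted p = 1.00), and the groups overlapped between 1465 and 1490 CPM.

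Markers of the segments that make Egf were read beside it. After IRI in fl/fl mice 4 of 7 markers of the thick ascending limb fell, as did 6 of 10 of the distal convoluted or connecting tubule, and none rose. Of 10 proximal tubule markers, a segment that does not make Egf, 8 fell. Over all genes tested, 7.01% were called lower and 8.46% higher in that comparison. The median log2 fold changes of these 3 lists were -1.17, -1.30 and -1.36. In iGKO none of them was called, where 0% of all genes was called, and the medians of the same 3 lists were 0.04, -0.38 and -0.45. The summed thick ascending limb markers ran from 2532 to 2978 CPM in sham and from 871 to 2219 after IRI in fl/fl. In iGKO they ran from 2419 to 3179 CPM in sham, and libraries 1 to 4 after IRI were at 1507, 2905, 2737 and 3400 CPM. The summed distal markers ran from 3866 to 5127 CPM in sham and from 1395 to 3225 after IRI in fl/fl, and from 3028 to 4146 and from 2447 to 3500 in iGKO. The part of these cell markers in the values of Egf was not tested. Set against Umod, the gene of uromodulin, the most abundant protein of the thick ascending limb, Egf stood at 83.7% to 92.5% of the Umod CPM in fl/fl sham and at 40.6%, 5.30%, 5.04% and 23.7% in fl/fl IRI 1 to 4. The same share was 25.7% to 45.7% in iGKO IRI. In fl/fl mice Umod itself was at 1779 ± 128 CPM without and 1371 ± 472 CPM after IRI (log2 fold change -0.38 ± 0.28, adjusted p = 0.395). Egf was thus lower relative to Umod in every IRI library, a ratio set up after its values were known and not tested. Slc12a1, another marker of the thick ascending limb, fell more than Umod in fl/fl (log2 fold change -2.18, adjusted p = 0.00281). In fl/fl sham 1 to 4 it was at 573, 416, 741 and 564 CPM. In fl/fl IRI 1 to 4 it was at 233, 44.9, 98.4 and 130 CPM. Relative to Slc12a1, Egf lay below the fl/fl sham range in fl/fl IRI 2 and 3 and within it in 1 and 4. In iGKO, Slc12a1 was at 436 to 602 CPM in sham and at 171, 485, 429 and 364 after IRI. Relative to it, Egf in every iGKO IRI library lay below the iGKO sham range. The lower level in every IRI library thus held for Umod only, and the comparison with Slc12a1 was not tested.

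Hbegf, which encodes heparin-binding EGF-like growth factor, a ligand of EGFR and ERBB4, was at 15.1, 14.9, 18.5 and 8.66 CPM in fl/fl sham. In iGKO sham it was at 9.99, 12.4, 11.0 and 18.9 CPM. In fl/fl IRI it was at 20.9, 29.8, 45.6 and 57.0 CPM, and in iGKO IRI at 9.50, 12.0, 12.3 and 19.9 CPM. All 4 fl/fl IRI libraries lay above the other 12 libraries, with fl/fl IRI 1 nearest to them. The 3 other groups covered nearly the same range, with means of 14.3 ± 4.10 CPM in fl/fl sham, 13.1 ± 4.04 in iGKO sham and 13.4 ± 4.51 after IRI in iGKO, against 38.3 ± 16.1 CPM after IRI in fl/fl.

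The rise of Hbegf in fl/fl was 2.69-fold (log2 fold change 1.42 ± 0.32, adjusted p = 0.00900), and it was called in all 16 fits that left out a library, with an adjusted p of 0.00124 to 0.0333. In iGKO the log2 fold change was 0.04 ± 0.32 (adjusted p = 0.998), with a 95% confidence interval of -0.63 to 0.72. After IRI, Hbegf was 2.85-fold lower in iGKO than in fl/fl (log2 fold change -1.51 ± 0.32, adjusted p = 0.0426). That call was lost in 13 of the 16 fits that left out a library, whichever the group, where the adjusted p ran from 0.0536 to 0.154 and the log2 fold change from -1.62 to -1.26. It was kept without fl/fl IRI 1, iGKO sham 4 or iGKO IRI 4. With only the 2 groups in the fit its adjusted p was 0.317. Without iGKO IRI 2 or iGKO IRI 3, the libraries with high markers of other tissues, the log2 fold change was -1.46 and -1.47 (adjusted p = 0.115 and 0.154). The interaction was -1.38 ± 0.45 on the log2 scale (adjusted p = 0.296), and it passed without fl/fl IRI 1 (-1.59, adjusted p = 0.0429). Fits that left out a library called up to 776 of all genes for the interaction, against 0 with all libraries.

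Markers of injured tubules and of leukocytes were read beside Hbegf. In fl/fl mice 9 of 9 injured tubule markers rose after IRI, with a sum of 3702 to 15493 CPM against 794 to 1515 in fl/fl sham, 1080 to 2392 in iGKO sham and 1580 to 3295 in iGKO IRI. All 8 neutrophil markers rose, with a sum of 31.5 to 260 CPM against 6.68 to 15.8 in fl/fl sham, 3.30 to 22.8 in iGKO sham, and 13.5 to 51.8 in iGKO IRI. Of 11 monocyte and macrophage markers 2 rose, with a sum of 274 to 1014 CPM against 154 to 395 in fl/fl sham, 186 to 302 in iGKO sham and 305 to 780 in iGKO IRI. Over all genes tested, 8.46% were called higher in fl/fl after IRI. None of the markers of these lists was at 0 in all libraries. None of the 6 tested lymphocyte markers was called, with 0 at an unadjusted p under 0.05 and a median log2 fold change of -0.40. Every iGKO IRI library had a higher monocyte and macrophage sum than every iGKO sham library, with 305 CPM as the lowest against 302 CPM as the highest. The highest sum of all, 1014 CPM, was that of fl/fl IRI 1. Between the genotypes after IRI, 6 of 9 injured tubule markers, 1 of 11 monocyte and macrophage markers and none of 8 neutrophil markers were called lower in iGKO, with 7 of the 8 at an unadjusted p under 0.05. Over all 17972 genes, 0.673% were called lower there, and 3440 had an unadjusted p under 0.05. The part of these markers in the differences of Hbegf was not tested.

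**Figure D2:**
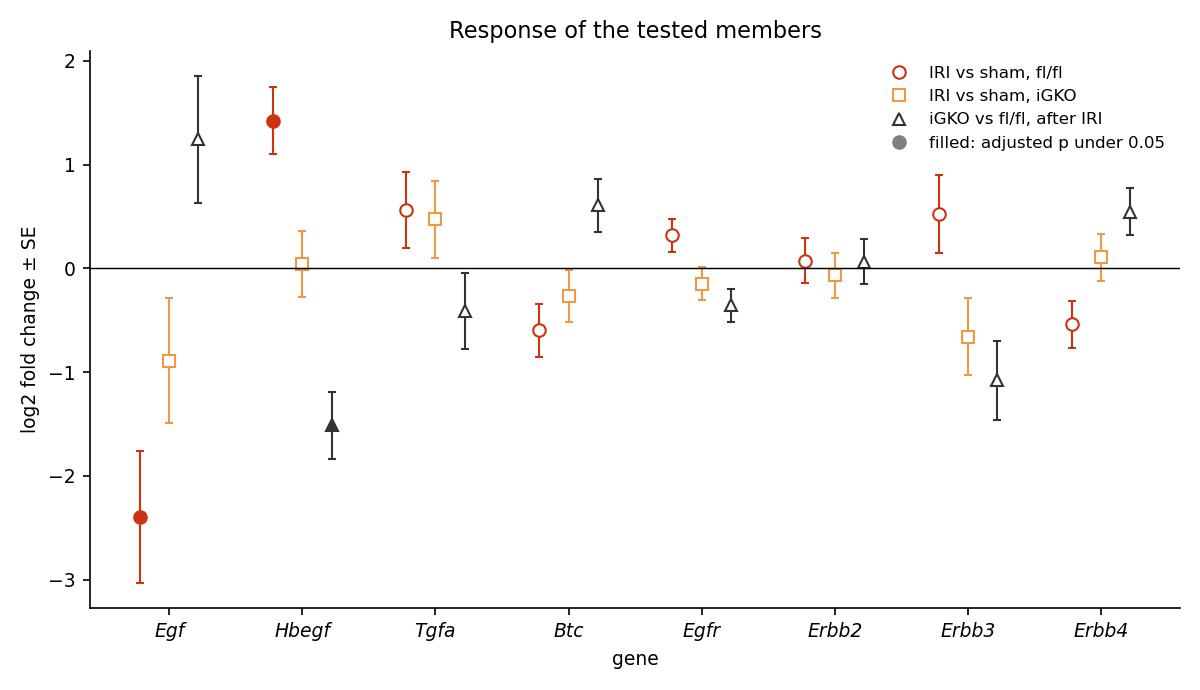
Log2 fold changes with their SE for the 8 tested members in IRI against sham in fl/fl (circles), IRI against sham in iGKO (squares) and iGKO against fl/fl after IRI (triangles), filled where the adjusted p is under 0.05. Filled symbols stand for Egf and Hbegf only.

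Tgfa encodes transforming growth factor alpha, a ligand of EGFR that shares its binding site with EGF. It was at 4.90, 4.86, 6.50 and 3.35 CPM in fl/fl sham, 3.15, 4.39, 3.91 and 4.18 in iGKO sham, 3.01, 8.38, 11.2 and 6.38 in fl/fl IRI, and 2.67, 7.09, 7.77 and 4.12 in iGKO IRI. In each IRI group a single library, number 1, lay below all its sham controls and the next 2 lay above them. The log2 fold change was 0.56 ± 0.37 in fl/fl (adjusted p = 0.323) and 0.47 ± 0.37 in iGKO (adjusted p = 0.964), and neither passed.

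Btc encodes betacellulin, a ligand of EGFR and ERBB4. It was at 2.61, 4.34, 4.402 and 3.77 CPM in fl/fl sham, 6.31, 4.27, 4.41 and 3.44 in iGKO sham, 1.85, 2.91, 2.79 and 2.46 in fl/fl IRI, and 3.64, 3.02, 4.17 and 4.46 in iGKO IRI. The log2 fold change in fl/fl was -0.60 ± 0.26 (adjusted p = 0.123). All iGKO IRI libraries lay above all fl/fl IRI libraries, as for 2.48% of all genes, with a log2 difference of 0.61 ± 0.25 that did not pass (adjusted p = 0.210). These levels rested on 27 to 84 counts per library.

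Areg and Ereg encode amphiregulin, a ligand of EGFR, and epiregulin, a ligand of EGFR and ERBB4. They were measured with few reads. Areg had 3, 0, 0 and 6 counts in fl/fl sham, 7, 7, 1 and 4 in iGKO sham, 6, 2, 11 and 16 in fl/fl IRI, and 1, 4, 6 and 1 in iGKO IRI. Ereg had 2, 1, 0 and 0 counts in fl/fl sham, 1, 2, 0 and 0 in iGKO sham, 0, 5, 7 and 4 in fl/fl IRI, and 4, 14, 0 and 1 in iGKO IRI. Group ranges overlapped for both genes in every comparison, and a change was not detectable at this depth. The highest levels were 1.011 CPM for Areg, in fl/fl IRI 4, and 0.864 CPM for Ereg, in iGKO IRI 2.

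The make-up of the ligand RNA was compared as CPM per kilobase of exon, so that genes of different length can be set side by side. Egf made up 96.7% ± 0.550 of the summed level of the 6 ligands in fl/fl sham and 96.1% ± 0.462 in iGKO sham. After IRI its share in fl/fl mice 1 to 4 was 91.8%, 27.7%, 35.5% and 69.6%, and in iGKO mice 1 to 4 it was 87.9%, 94.2%, 94.3% and 91.9%. Hbegf took most of the rest, with 6.41%, 53.8%, 48.7% and 25.2% of the ligand level in fl/fl IRI, against 1.32% to 2.56% in fl/fl sham and 2.93% to 7.17% in iGKO IRI. In fl/fl IRI 2 and 3 the level of Hbegf per kilobase thus stood above that of Egf. The summed ligand level was 142 ± 8.23 CPM per kilobase in fl/fl sham, 119 ± 14.0 in iGKO sham, 36.3 ± 25.7 in fl/fl IRI and 66.6 ± 26.9 in iGKO IRI. In CPM, the ratio of Egf to Hbegf ran from 87.7 to 172 in sham and was 33.4, 1.1996, 1.70 and 6.44 after IRI in fl/fl. In iGKO it ran from 78.7 to 122 in sham and was 28.6, 71.5, 75.1 and 37.1 after IRI. These shares and ratios are descriptions with no test.

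**Figure D3:**
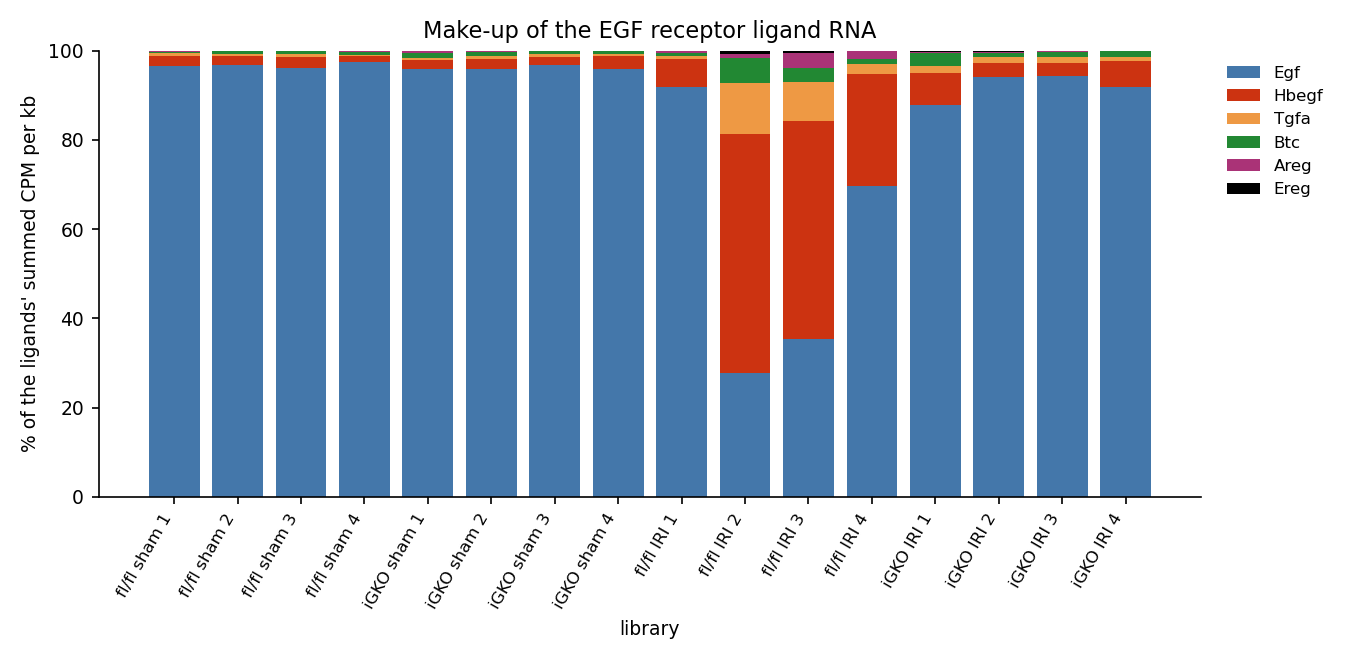
Share of each ligand in the summed CPM per kilobase of the 6 ligands, 1 bar per library, in percent. Egf fills at least 87.9% of every bar except fl/fl IRI 2, 3 and 4, where it falls to 27.7%, 35.5% and 69.6% and Hbegf takes most of the difference.

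**Figure D4:**
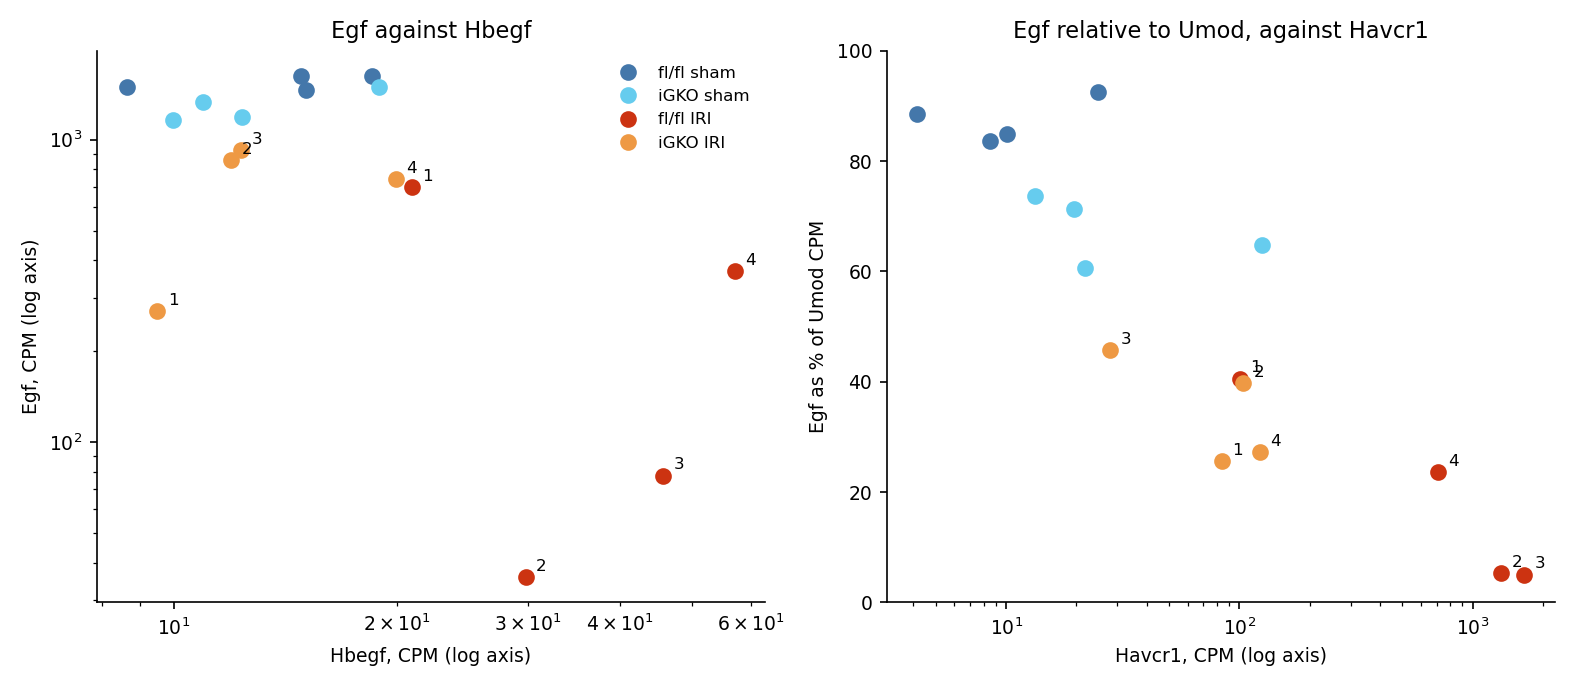
Left, Egf against Hbegf in CPM on log axes; right, Egf as a percentage of the Umod CPM against Havcr1 in CPM on a log axis, 1 point per library, with replicate numbers on the IRI libraries. Libraries fl/fl IRI 2 and 3 lie at the lowest Egf and at the highest Havcr1, 1325 and 1666 CPM, and fl/fl IRI 1 lies beside the iGKO IRI libraries in both plots.

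No receptor was called in any of the 5 comparisons with all libraries in the fit, by edgeR or by DESeq2. Egfr, the receptor that binds all 6 ligands, was at 142, 97.9, 155 and 124 CPM in fl/fl sham, 136, 144, 164 and 117 in iGKO sham, 132, 149, 179.9 and 187 in fl/fl IRI, and 130, 137, 115 and 124 in iGKO IRI. The groups overlapped throughout. Its log2 fold change in fl/fl was 0.32 ± 0.16 (adjusted p = 0.190; 95% confidence interval -0.02 to 0.66), and it was called without fl/fl IRI 1 and iGKO sham 4 together (0.42, adjusted p = 0.0482). That fit called 5508 of all genes for IRI in fl/fl, against 2779 with all libraries. In iGKO the log2 fold change of Egfr was -0.15 ± 0.16 (adjusted p = 0.983).

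Erbb2 encodes the receptor that binds no ligand and serves as the preferred partner of the others. It was at 94.3 ± 18.9 CPM in fl/fl sham, 109 ± 37.6 in iGKO sham, 99.1 ± 16.8 in fl/fl IRI and 104 ± 18.1 in iGKO IRI, with iGKO sham 4 highest at 163 CPM. The log2 fold change was 0.07 ± 0.22 in fl/fl (adjusted p = 0.855), and the 95% confidence interval ran from -0.38 to 0.53. Exons of Mien1 overlap those of Erbb2 on the opposite strand. Mien1 held 10101 counts over the 16 libraries against 24352 for Erbb2, so Erbb2 is uncertain if the counting did not use strand.

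Erbb3 encodes the receptor for neuregulins with an impaired kinase. It was at 124, 141, 193 and 146 CPM in fl/fl sham, 104, 151, 203 and 188 in iGKO sham, 120, 140, 119 and 487 in fl/fl IRI, and 85.8, 106, 91.2 and 127 in iGKO IRI. A single library, fl/fl IRI 4, set the mean of fl/fl IRI at 217 ± 180.2 CPM, and the other 3 lay within the sham range or just below it. The log2 fold change in fl/fl was 0.52 ± 0.37 (adjusted p = 0.368) and became -0.25 without fl/fl IRI 4 (adjusted p = 0.506). After IRI, Erbb3 was 1.08 ± 0.38 lower in iGKO on the log2 scale, which did not pass (adjusted p = 0.149). Without fl/fl IRI 1 that difference passed (-1.28, adjusted p = 0.0337), and without fl/fl IRI 4 it was -0.31 (adjusted p = 0.610). The fit without fl/fl IRI 1 called 2495 of all genes in that comparison, against 153 with all libraries.

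Erbb4, the receptor for neuregulins, Hbegf and Btc, was at 40.8, 32.3, 49.3 and 50.7 CPM in fl/fl sham, 39.9, 39.7, 46.0 and 35.7 in iGKO sham, 35.2, 19.7, 40.5 and 23.6 in fl/fl IRI, and 31.1, 49.7, 39.7 and 53.2 in iGKO IRI. The lowest values were in fl/fl IRI 2 and 4, and the groups overlapped. The log2 fold change was -0.54 ± 0.23 in fl/fl (adjusted p = 0.114) and 0.11 ± 0.22 in iGKO (adjusted p = 0.993). Per kilobase, the order of the receptor levels in the sham and fl/fl IRI groups was Erbb3, Erbb2, Egfr and Erbb4, at 25.1 ± 4.90, 18.1 ± 3.63, 11.5 ± 2.19 and 3.50 ± 0.692 in fl/fl sham. After IRI in iGKO, Erbb2 stood above Erbb3, at 19.9 ± 3.47 against 17.0 ± 3.06 CPM per kilobase, within their spread. For the ligands in fl/fl sham the order per kilobase was Egf, Hbegf, Btc, Tgfa, Areg and Ereg, at 137.7 ± 7.58, 2.95 ± 0.849, 0.837 ± 0.184, 0.756 ± 0.198, 0.135 ± 0.167 and 0.0135 ± 0.0181, with the pairs Btc and Tgfa and Areg and Ereg within their spread. The summed receptor level was 58.2 ± 9.57 CPM per kilobase in fl/fl sham, 63.4 ± 12.8 in iGKO sham, 71.8 ± 33.8 in fl/fl IRI and 51.6 ± 6.82 in iGKO IRI.

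The genes around the receptors were read from 7 lists of 105 genes, of which 102 were tested. In fl/fl IRI, 30 of them rose and 1 fell, with a median log2 fold change of 0.39 against 0.01 over all genes tested. Those are 29.4% and 0.98% of the lists, against 8.46% and 7.01% of all genes. After IRI, 8 were lower in iGKO than in fl/fl and none higher, with a median of -0.33 against -0.01, which is 7.84% of the lists against 0.673% of all genes. Of the 102, 5 genes, all of the list of EGF receptor-induced genes, passed the count filter only through the IRI groups, and the 97 others gave 26 higher and 1 lower in fl/fl, and 8 lower between the genotypes after IRI. In iGKO after IRI edgeR called none, with 10 at an unadjusted p under 0.05 and 1 called by DESeq2. None was called between the sham groups, with 3 at an unadjusted p under 0.05 and none by DESeq2. None was called for the interaction, with 28 at an unadjusted p under 0.05 and 8 called by DESeq2. Over all 17972 genes the unadjusted counts of these comparisons were 1145, 210 and 2033. DESeq2 called 44 of all genes for IRI in iGKO and 112 for the interaction. Leaving out 1 library at a time gave 23 to 41 list genes higher and 0 to 2 lower in fl/fl IRI, with 1452 to 4335 of all genes called. In iGKO against fl/fl after IRI it gave 0 to 2 list genes higher and 0 to 29 lower, with 0 to 2495 of all genes called. Without fl/fl IRI 1 and iGKO sham 4 together the list counts were 50 higher and 5 lower, and 4 higher and 42 lower. Over all genes, 5508 and 3816 were then called. With only the 2 groups of a comparison in the fit the list counts were 25 higher and 0 lower in fl/fl, where 1 of the 102 no longer passed the filter. Between the genotypes after IRI no list gene was then called in either direction. Over all genes those fits called 1526 and 0. The comparisons share the fl/fl IRI samples. The lists were chosen with earlier results of these data known, so their shares beside those of all genes are descriptions and no independent test.

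Of the 5 other ErbB ligands, Epgn, Nrg2 and Nrg3 fell below the count filter, and Nrg1 rose after IRI in fl/fl while Nrg4 was not called (log2 fold change -0.64 ± 0.75, adjusted p = 0.608). Nrg1 encodes neuregulin 1, the main ligand of ERBB3 and ERBB4. It was at 30.9 ± 9.10 CPM in fl/fl sham, 42.3 ± 5.38 in iGKO sham, 97.4 ± 34.7 in fl/fl IRI and 46.1 ± 9.69 in iGKO IRI (log2 fold change in fl/fl 1.66 ± 0.27, adjusted p = 0.00151). Its level in iGKO IRI was 1.08 ± 0.26 lower than in fl/fl IRI on the log2 scale, which did not pass (adjusted p = 0.0615). It passed without fl/fl IRI 1 (0.00213), with no count filter (0.0330) and by DESeq2 (0.00695), and with only the 2 groups in the fit the adjusted p was 0.317.

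Of 12 genes that act in ligand shedding, 2 rose in fl/fl IRI and none fell, 16.7% against 8.46% of all genes (median log2 fold change 0.31). Rhbdf2, whose product iRhom2 carries ADAM17 to the cell surface, went from 25.0 ± 6.44 to 57.4 ± 14.1 CPM (adjusted p = 0.00500). Timp1, an inhibitor of metalloproteases, went from 3.71 ± 2.86 to 21.8 ± 16.1 CPM (adjusted p = 0.0199), a call that was lost without fl/fl sham 2, 3 or 4 or fl/fl IRI 3 (adjusted p 0.0551 to 0.0744). The sheddases themselves were not called: Adam17 had a log2 fold change of 0.26 ± 0.14 (adjusted p = 0.234) and Adam10 of 0.26 ± 0.21 (adjusted p = 0.432).

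Of 16 receptor adaptors and proximal signalling genes 2 rose (median 0.13), the adaptor Shc1 (0.67 ± 0.17, adjusted p = 0.0166) and the phosphatase Ptpn11 (0.47 ± 0.14, adjusted p = 0.0383). Of 13 genes of the RAS-ERK cascade 1 rose (median 0.16): the GTPase gene Nras went from 44.6 ± 2.84 to 96.6 ± 34.2 CPM (log2 fold change 1.12 ± 0.20, adjusted p = 0.00281). Of 13 genes of the PI3K-AKT-STAT branch 3 rose (median 0.19): the transcription factor gene Stat3 (1.49 ± 0.26, adjusted p = 0.00218), the kinase gene Src (1.13 ± 0.27, adjusted p = 0.0114) and the kinase gene Akt1 (0.68 ± 0.17, adjusted p = 0.0148). None of these 3 lists held a gene that fell. The shares that rose were 12.5%, 7.69% and 23.1%, against 8.46% of all genes, so that the RAS-ERK share was at the level of all genes and the adaptor share, 2 of 16, little above it. The calls of Shc1 and Akt1 were lost without fl/fl sham 3 (adjusted p = 0.0512 and 0.0557), that of Shc1 also without fl/fl sham 4 (0.051) and that of Akt1 without fl/fl IRI 3 (0.0538). That of Ptpn11 was lost in 8 of the 16 fits that left out a library (adjusted p up to 0.112).

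Of 22 negative regulators of ErbB receptors, 5 rose and 1 fell in fl/fl IRI (median 0.41), 22.7% and 4.55% against 8.46% and 7.01% of all genes. Dusp5, which encodes a nuclear phosphatase of ERK, went from 2.47 ± 0.505 to 31.0 ± 27.0 CPM (log2 fold change 3.64 ± 0.57, adjusted p = 0.00121). Smaller rises were those of the receptor phosphatase gene Ptprj (0.69 ± 0.15, adjusted p = 0.00616) and of Spred1 (0.71 ± 0.16, adjusted p = 0.00904) and Spry4 (0.80 ± 0.20, adjusted p = 0.0139), inhibitors of the RAS-ERK cascade. The fifth was the ubiquitin ligase gene Cbl (0.40 ± 0.13, adjusted p = 0.0452), and the gene that fell was Lrig3 (-0.52 ± 0.13, adjusted p = 0.0172). Both genes were named after their values were seen. The call of Cbl was lost in 11 of 16 fits that left out a library (adjusted p up to 0.128), that of Spry4 without fl/fl sham 3 (0.0522) and that of Lrig3 without fl/fl IRI 3 (0.0629).

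Of 24 genes that EGF receptor signalling is known to induce, 19 passed the count filter on the sham groups alone. Of these 19, 12 rose in fl/fl IRI and none fell (median log2 fold change 1.52), against 8.46% and 7.01% of all genes. The other 5, Egr3, Fosb, Fosl1, Hmga2 and Vgf, passed through the IRI groups, and a rise in them is no independent count. With them the list had 16 higher of 24 and a median of 2.02. Most are immediate early genes, which hypoxia, cytokines and other stimuli induce as well. Plaur, the gene of the urokinase receptor, went from 3.91 ± 1.18 to 73.3 ± 45.2 CPM (log2 fold change 4.23 ± 0.43, adjusted p = 0.000361). Myc went from 7.69 ± 1.25 to 62.4 ± 38.8 CPM (3.02 ± 0.39, adjusted p = 0.000583). Jun went from 39.1 ± 4.98 to 158 ± 62.0 CPM (2.02 ± 0.26, adjusted p = 0.000583) and Junb from 20.9 ± 2.30 to 102 ± 45.3 CPM (2.29 ± 0.30, adjusted p = 0.000633), both subunits of AP-1. Vgf had no read in fl/fl sham and 339 in fl/fl IRI. In iGKO the list had no call by edgeR, where 0% of all genes was called, and a median of 0.38, against -0.02 over all genes. At an unadjusted p under 0.05 it had 6 of 24 there, against 1145 of all 17972 genes. Injured tubule and neutrophil markers rose in the same libraries as these genes, and their part in the counts was not tested.

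After IRI, none of the 5 genes that passed the filter through the IRI groups was called between the genotypes. Of the 19, 5 were lower in iGKO than in fl/fl and none higher (median -1.25), against 0.673% and 0.178% of all genes. They were Plaur (-2.15 ± 0.39, adjusted p = 0.0325), Trib1 (-1.42 ± 0.29, adjusted p = 0.0398), Jun (-1.25 ± 0.25, adjusted p = 0.0398), Klf6 (-1.97 ± 0.42, adjusted p = 0.0426) and Junb (-1.39 ± 0.29, adjusted p = 0.0426). Trib1 encodes a pseudokinase of the tribbles family and Klf6 a zinc-finger transcription factor. The other lists gave Dusp5 (-2.49 ± 0.53, adjusted p = 0.0426), Nras (-0.89 ± 0.20, adjusted p = 0.0479) and Stat3 (-1.11 ± 0.25, adjusted p = 0.04996), all lower in iGKO. The call of Plaur was lost in 6 of the 16 fits that left out a library, those of Jun, Klf6, Junb and Dusp5 in 13 and those of Trib1, Nras and Stat3 in 14, with adjusted p up to 0.168.

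**Figure D5:**
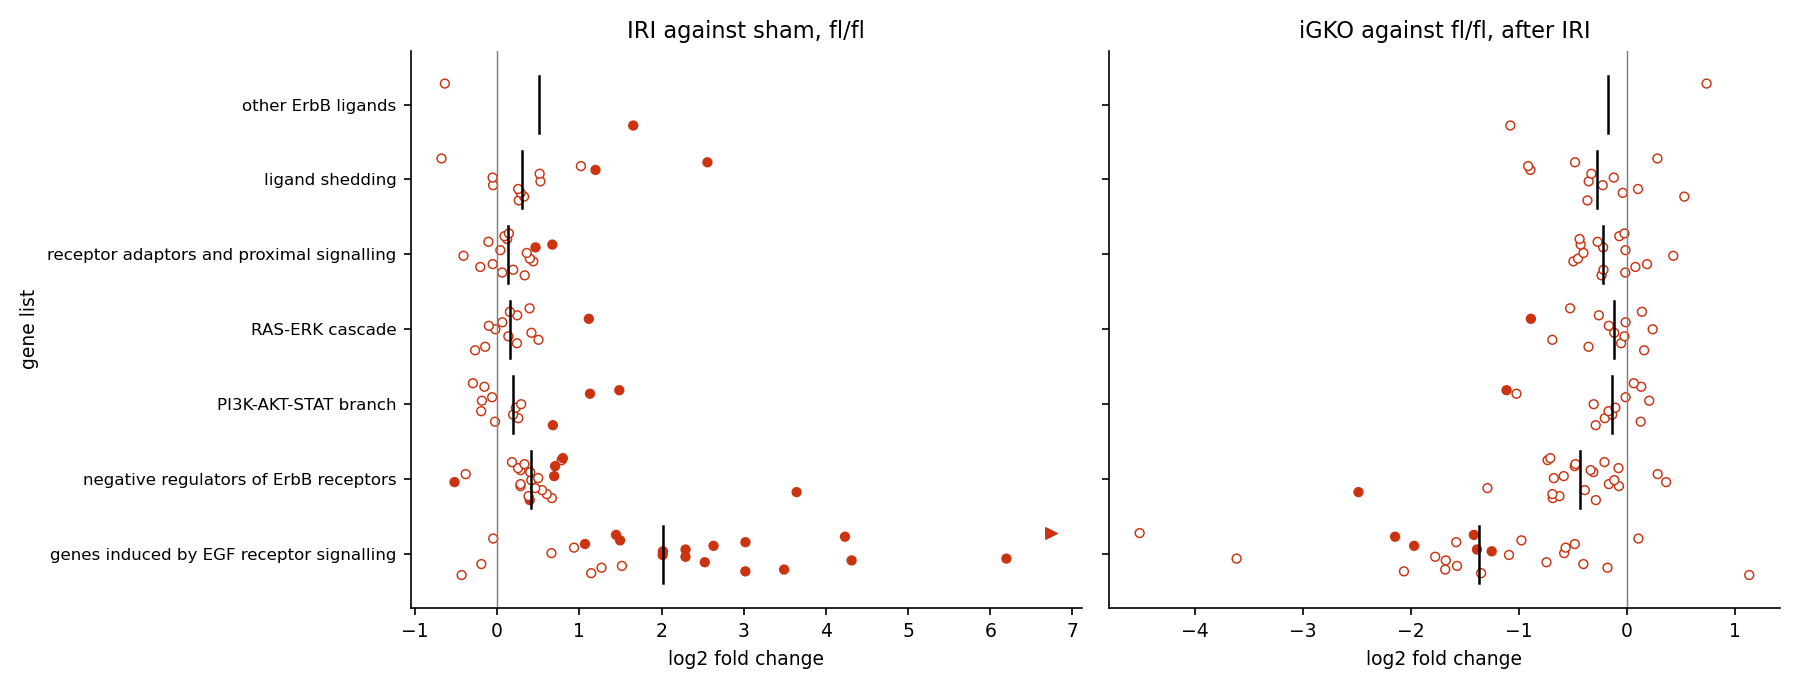
Log2 fold changes of the tested genes of the 7 lists (points, filled where the adjusted p is under 0.05; black lines, list medians) for IRI against sham in fl/fl and for iGKO against fl/fl after IRI. The triangle marks Vgf, with no read in fl/fl sham, at a lower bound set by a floor of 3 counts, the medians include the 5 genes that passed the filter through the IRI groups, and the list of EGF receptor-induced genes has the medians farthest from 0, 2.02 and -1.37.

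Trpm6 encodes the magnesium channel of the distal convoluted tubule that EGF is known to stimulate. It was at 47.1 ± 3.85 CPM in sham and 43.4 ± 35.6 after IRI in fl/fl, and at 43.9 ± 13.7 and 27.3 ± 7.40 in iGKO. The fl/fl IRI libraries were at 29.3, 22.6, 25.1 and 96.6 CPM, so that 3 lay below the fl/fl sham range, which began at 43.5, and fl/fl IRI 4 lay above it. The log2 fold change in fl/fl was -0.12 ± 0.37 (adjusted p = 0.865), and without fl/fl IRI 4 Trpm6 was called as lower (adjusted p = 0.0284).

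The genes most like Egf, Hbegf and Egfr were taken by Pearson's r of log2 CPM over the 16 samples, among 11232 genes. The samples form 4 groups, so these values are descriptions. Closest to Egf were Slc12a1 (r = 0.957), which encodes the furosemide-sensitive salt transporter of the thick ascending limb, Wfdc15b (0.950), Mfsd4a (0.946), Esrrb (0.942) and Abca13 (0.942). Mean Slc12a1 went from 573 to 126 CPM after IRI in fl/fl and from 482 to 362 in iGKO, the same order of groups as for Egf. Closest to Hbegf were Lpin3 (0.954), Kctd1 (0.933), Vps37b (0.931), Ddit4 (0.923) and Camk2n2 (0.914). Mean Kctd1 went from 30.4 to 66.3 CPM after IRI in fl/fl and from 32.2 to 29.8 in iGKO. Closest to Egfr were Rraga (0.886), Acot9 (0.878), Nxt1 (0.856), Rasa1 (0.853) and Cep192 (0.843).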

How the data were processed

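The deposited table gave whole-number counts per gene, not normalized, under 56980 Ensembl identifiers for 16 libraries. Per the labels, the kit kept strand and followed depletion of ribosomal RNA. Tools listed in the submitters' processing notes are STAR 2.7.9a, featureCounts 1.6.3, cutadapt 1.16, DESeq2 1.36.0, FastQC, MultiQC and Picard, with build GRCm39. What each did, which annotation was used and whether counting used strand are not given in the sources used here. Symbols (for 52073 identifiers) and exon lengths were looked up by identifier in GENCODE for GRCm38, so no coordinates of genes are printed in the build of the counts.

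Analysis used edgeR 4.0.16 under R 4.3.3: filterByExpr by group, TMM scaling, and 1 quasi-likelihood model of all 16 libraries with 5 two-sided contrasts (IRI against sham in each genotype, iGKO against fl/fl after each operation, and the interaction). SE is the absolute log2 fold change over the square root of F, and 95% intervals are unadjusted. The code was tested on simulated data. Alternatives were DESeq2 1.42.0, other scalings, no filter, a replicate block, only the 2 groups compared, and leaving out libraries. CPM per kilobase divides by the union of exons. A group at 0 counts was given a floor of 3 counts, which covers counting error only. Likeness used a prior count of 2 and genes with a mean of at least 5 CPM. Samples are replicates as labelled, and where they are not from separate animals the p-values measure technical spread. All carried 1 batch label.

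Named genes were the 10 members, Degs1 and Trpm6, up to 4 called genes with the smallest p of each list in each contrast, and the 5 genes most like Egf, Hbegf and Egfr. Adam10, Adam17, Cbl, Errfi1, Havcr1, Lrig3, Nrg4, Umod, Vgf and the genes that passed the filter through the IRI groups were added outside that rule. The counts over genes that pass the filter on the sham groups alone were chosen after seeing the data. The members, lists and rules were chosen with earlier results of these data known.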

Additional observations from a re-analysis of the deposited data

Results flagged for a closer look

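In fl/fl IRI, 1 library lay far from the other 3 for Erbb3: fl/fl IRI 4 was at 487 CPM, and the others were at 120, 140 and 119 CPM. The gap to the nearest library was 0.943 of the whole range of the group, above the 95% critical value of the Dixon test for 4 samples. The 10 members in 4 groups gave 40 such checks, and chance flags about 1 in 20. The same library had Trpm6 at 96.6 CPM against 22.6 to 29.3 CPM in the other 3, and Errfi1, an inhibitor of the EGF receptor that was singled out after its values were seen, at 1307 CPM against 252 to 365 CPM. The cause was not tested.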

How the results depend on the processing

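In fl/fl IRI 2779 genes were called against sham (1520 higher, 1259 lower), 1526 with only the 2 groups compared and 5508 without fl/fl IRI 1 and iGKO sham 4. After IRI, iGKO differed from fl/fl in 153 genes, in 85 with total-count scaling, 947 with DESeq2, 352 with no filter, 0 with only the 2 groups compared and 3816 without both libraries. IRI in iGKO gave 0 genes, 44 with DESeq2 and 4 with no filter. The interaction gave 0 genes, 112 with DESeq2, 15 with no filter and 1489 without both libraries. With 1 library left out at a time the counts ran from 1452 to 4335 for IRI in fl/fl, from 0 to 1 for IRI in iGKO, from 0 to 2495 for iGKO against fl/fl after IRI and from 0 to 776 for the interaction, the upper values of 4335 and 2495 being those without fl/fl IRI 1. The sham comparison stayed at 0. With the replicate block, 2495 genes were called for IRI in fl/fl, 0 for iGKO against fl/fl after IRI and 1 for the interaction, and Hbegf after IRI had an adjusted p of 0.0566. The numbers were not shown to pair samples: 24 same-numbered pairs had correlations of -0.33 to 0.40, 6 of them over 0.1, and 7 of 16 samples correlated best with their own number. Hbegf after IRI also missed the threshold with total-count scaling (0.0506) and with only the 2 groups compared (0.317). No called log2 change turned its sign. Uncalled ones turned as follows: IRI in iGKO for Degs1 (0.0525) and Erbb2 (0.0419) with total-count scaling, and, without both libraries, Erbb2 for IRI in iGKO (0.21), between the sham groups (-0.0596) and for the interaction (0.15). Leaving out 1 library at a time turned 22 more, and their log2 changes then ran as follows. For IRI in fl/fl they ran from -0.25 to 0.72 for Erbb3, whose value with all libraries was 0.52, and from -0.0360 to 0.19 for Erbb2. For IRI in iGKO they ran from -0.21 to 0.29 for Hbegf, -0.18 to 0.0633 for Degs1, -0.00765 to 0.23 for Erbb4 and -0.20 to 0.21 for Erbb2. Between the sham groups they ran from -0.0304 to 0.26 for Erbb3, -0.00145 to 0.21 for Egfr, -0.36 to 0.0223 for Hbegf and -0.0600 to 0.33 for Erbb2. After IRI, Erbb2 ran from -0.0608 to 0.17, and for the interaction Tgfa ran from -0.35 to 0.19 and Erbb2 from -0.27 to 0.13. Group levels under RLE and total-count scaling, alternatives chosen after seeing the data, moved by less than 1 SD in all 80 cases. The causes were not tested. Depth limits Areg and Ereg most.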

Other observations

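Between the sham groups, Egf relative to Umod did not overlap: 83.7% to 92.5% of the Umod CPM in fl/fl sham and 60.7%, 64.8%, 71.4% and 73.7% in iGKO sham. The separation held for Umod only. Slc12a1, another marker of the segment, was at 573, 416, 741 and 564 CPM in fl/fl sham 1 to 4. In iGKO sham 1 to 4 it was at 453, 439, 602 and 436 CPM. Relative to Slc12a1, Egf overlapped between the sham groups. The ratio of Egf to Umod was set up after its values were known and was not tested, and neither Egf nor Umod was called in that comparison. Library iGKO sham 4, with 60.7%, also had the low mitochondrial share of 0.443%, and iGKO sham 2, with 64.8%, had Havcr1 at 126 CPM against 13.2 to 21.7 CPM in the other 3.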
